A study of Rattus norvegicus with 12 samples.

Results

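Gene expression in the fracture hematoma, the blood clot and early tissue that fill a bone gap, was described here for 10 genes of lipid storage and release. They were Angptl4 and Lpl, which govern fat uptake from lipoproteins, the lipid droplet proteins Plin1, Plin2, Plin4 and Cidec, and the lipolysis genes Pnpla2, Lipe, Mgll and G0s2. Every probe set that the platform annotation gave to exactly 1 of these symbols was collected, which gave 16 probe sets for 10 of 14213 genes, and for each gene the probe set with the highest mean over the 12 arrays was used. The genes were chosen by family and by measured differences of these same arrays, namely Angptl4 between OSR and YR, G0s2 between fixators and Plin1 between YR and OR, so these 3 differences are given below as descriptions, and nothing is read from a call or p-value of them.

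The hematoma was taken on day 3 from the left femur of female Sprague-Dawley rats, in which a bone gap of 1.5 mm at mid-shaft was bridged by an external fixator. The 4 groups crossed age with fixator. Rats of 12 weeks carried the semi-rigid fixator in YSR and the rigid one in YR, and rats of 52 weeks carried the rigid one in OR and the semi-rigid one in OSR. The semi-rigid fixator stood 15 mm off the bone and the rigid one 7.5 mm. Each group had 3 arrays, each with the pooled RNA of 3 of its 9 animals, so that the errors given here are spreads between pools and not between animals. No intact or unoperated animals were among these arrays.

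Fat is stored as triglyceride in lipid droplets, whose surface is coated by perilipins. In fat cells PLIN1 holds lipases away from the droplet until hormones call for fat, and CIDEC lets droplets merge into large ones, whereas PLIN2 coats droplets in most cell types, lipid-laden macrophages among them. Stored triglyceride is cut stepwise by the lipases encoded by Pnpla2, Lipe and Mgll, and G0S2 blocks the lipase of the opening step. Fat from the blood enters tissue through lipoprotein lipase, encoded by Lpl, which the secreted protein ANGPTL4 inhibits. Angptl4 is known to be induced by fasting, by low oxygen and through PPAR receptors, and both fat cells and macrophages can make it.

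Some arrays differed in RNA integrity. The Gapdh control has probe sets at both ends of its transcript, and the log2 ratio of 3' over 5' end, higher in degraded RNA, reached 6.69 for array 1 of YSR and 2.95 for array 1 of OR, lay between 1.02 and 1.59 in the YR arrays and between 0.33 and 0.49 in the rest. Without those 2 arrays of highest ratio, old minus young was 0.63 for Angptl4, 2.29 for Plin1 and 3.21 for Cidec, and rigid minus semi-rigid was -0.53 for Angptl4 and 1.06 for G0s2 (all log2), beside 0.65, 2.36, 3.08, -0.51 and 1.01 with all 12 arrays. This check kept the YR arrays, whose ratios were all above those of the other arrays kept. For YR, RNA integrity and group therefore cannot be told apart. The macrophage marker Cd68 was bright in every group, with group means from 13.31 to 13.89. So was Alas2, an enzyme of heme synthesis in red cell precursors, with group means from 13.66 to 14.61. Cell markers spanned a wide range of signal, some of them brighter than these, and the macrophage marker Cd163 had group means from 8.39 to 9.38. Of the 10 lipid genes, 8 had a mean no lower than the median probe set (7.16), and Plin1 (7.13) and Cidec (4.51) lay below it. All levels are log2 of the array signal, and levels of different genes were not set against each other because probe sets differ in brightness.

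The sequences just upstream of a transcription start are shown for the 3 genes whose patterns differed from one another, Angptl4, G0s2 and Plin1 (RefSeq, rat build GRCr8, each read along the strand of the gene). Capitals mark ACGTG, a form of the core of the element bound by hypoxia-inducible factors. In Angptl4 it lies on the opposite strand and so reads CACGT, from position -230 relative to the start. Only this form was searched, so a sequence without capitals may still hold another form of the core.

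Angptl4, chr7:15258682-15258931, minus strand: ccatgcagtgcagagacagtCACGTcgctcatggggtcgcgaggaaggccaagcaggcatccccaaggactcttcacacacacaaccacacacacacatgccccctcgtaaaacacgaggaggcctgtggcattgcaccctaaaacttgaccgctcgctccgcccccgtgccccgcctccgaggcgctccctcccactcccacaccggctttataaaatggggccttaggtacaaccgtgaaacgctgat
G0s2, chr13:107335949-107336198, minus strand: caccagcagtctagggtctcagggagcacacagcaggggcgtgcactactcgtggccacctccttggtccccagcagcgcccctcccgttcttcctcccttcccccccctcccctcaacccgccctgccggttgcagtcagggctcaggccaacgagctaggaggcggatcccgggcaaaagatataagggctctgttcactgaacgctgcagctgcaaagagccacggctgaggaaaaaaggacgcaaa
Plin1, chr1:143086200-143086398, minus strand: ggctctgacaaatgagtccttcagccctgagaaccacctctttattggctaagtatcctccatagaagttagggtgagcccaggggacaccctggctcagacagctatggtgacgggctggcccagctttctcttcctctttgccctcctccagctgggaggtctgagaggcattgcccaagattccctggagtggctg

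The Angptl4 sequence ends at a start inside the annotated span of the gene (chr7:15252450-15259971), and the other sequences lie directly upstream of G0s2 (chr13:107335036-107335948) and Plin1 (chr1:143073612-143086199). Windows from 250 bases before to 50 bases after a start were available for 8 of the 10 genes, all except Lipe and Lpl. ACGTG was found on either strand in 3 of these 8 (Angptl4, Plin2 and Mgll) and in 20.9% of the 27457 genes with a window. The repeat bound by PPAR receptors, AGGTCA and again AGGTCA after 1 free base, was searched on both strands with up to 2 mismatches and was found in 0 of the 8 genes and in 4.06% of all genes. In Plin2 and Mgll the match read CACGTG, which holds ACGTG on both strands and is also the motif known as the E-box. A match is a description of the letters and does not show binding.

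Angptl4 formed 4 steps, with YR lowest, then YSR, OR and OSR. Its levels were 10.98, 11.19 and 11.30 in YR, 11.67, 12.02 and 11.70 in YSR, 11.88, 11.88 and 12.06 in OR, and 12.29, 12.40 and 12.27 in OSR. The YR arrays lay below all other arrays and the OSR arrays above all others, whereas YSR and OR overlapped. Means with SD over 3 arrays were 11.16 ± 0.16 (YR), 11.80 ± 0.20 (YSR), 11.94 ± 0.11 (OR) and 12.32 ± 0.07 (OSR).

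Age and fixation each had the same sign for Angptl4 at either level of the other. Old rats were above young rats with either fixator, by 0.52 (semi-rigid) and 0.78 (rigid), and semi-rigid was above rigid at either age, by 0.64 in young and 0.38 in old rats (all log2). The arrays did not overlap in these 4 pairs, which held for 4.08%, 7.75%, 5.73% and 5.04% of all probe sets in the same order. Between the neighbours YSR and OR the difference was -0.14 (95% interval -0.42 to 0.14). Averaged over fixation, old exceeded young by 0.65 (95% interval 0.45 to 0.85, 1.57-fold), with an adjusted p of 0.0905 in limma. Over 19 alternatives of processing or arrays the adjusted p lay between 0.032 and 0.367. Only 1 of them, without OSR array 3 (0.66, adjusted p = 0.032), was under 0.05. Averaged over age, rigid was below semi-rigid by a log2 difference of -0.51 (-0.71 to -0.31), with an adjusted p of 0.638, and the interaction was 0.26 (-0.13 to 0.65). The difference between the extreme groups, OSR minus YR, was 1.16 (0.88 to 1.44, 2.23-fold). It was the only adjusted call among the 10 genes in the 9 comparisons, where 0.00322% of all probe sets were called in that pair, and since it is a difference that drew Angptl4 into the set, nothing is read from it. The call was lost when any of the OSR or YR arrays, OR array 1 or OR array 2 was left out (adjusted p from 0.057 to 0.262). The other comparisons of Angptl4 use these same arrays and are not independent of it.

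Lpl, the enzyme that ANGPTL4 inhibits, had its highest group mean in YSR and its lowest in OSR, with a wide spread between arrays. Its levels were 12.75, 14.07 and 13.60 in YSR, 13.39, 13.33 and 13.43 in YR, 12.44, 12.76 and 13.43 in OSR, and 13.28, 12.73 and 13.27 in OR. Every YR array was above every OR array, which held for 6.04% of all probe sets, while all other pairs of groups overlapped. The mean of old minus young was -0.45 (-0.92 to 0.03, adjusted p = 0.604) and that of rigid minus semi-rigid 0.06 (-0.41 to 0.53, adjusted p = 0.978).

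**Figure D1:**
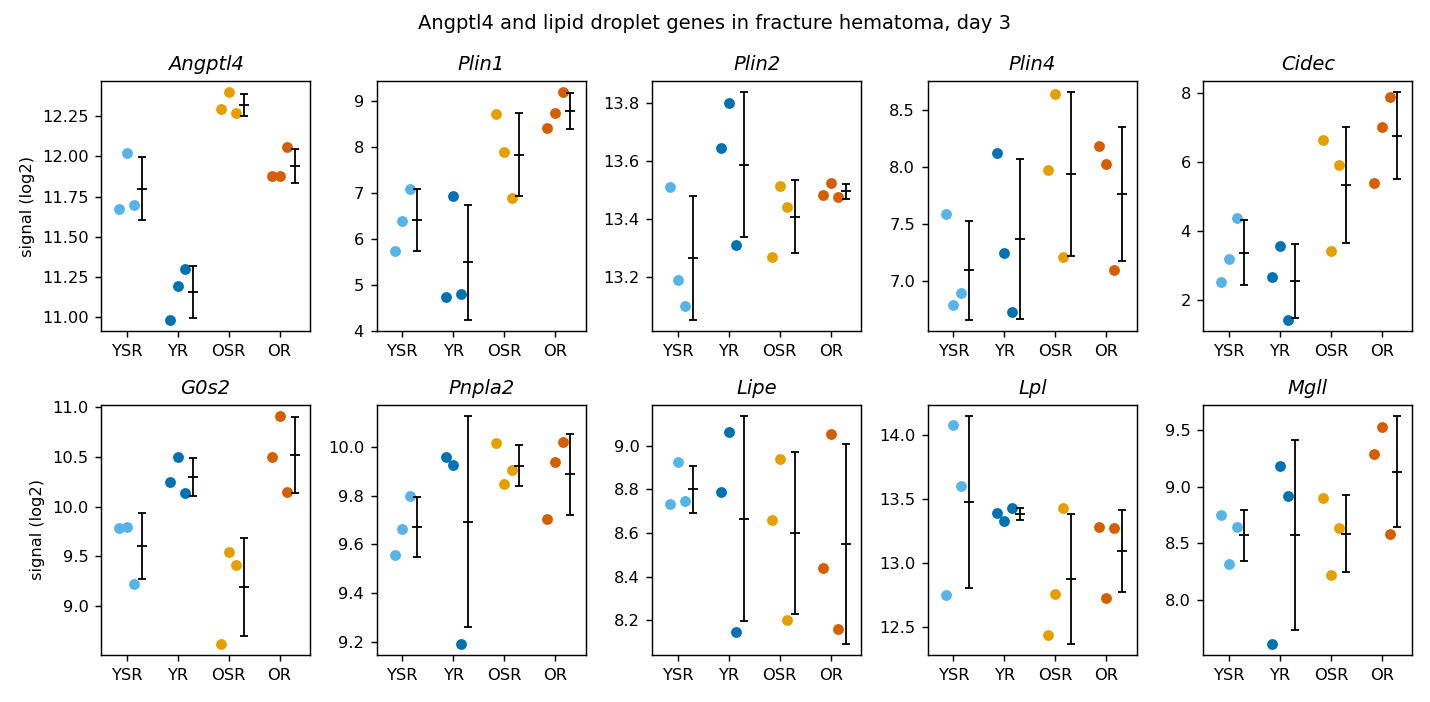
Signal (log2, vertical axis, a different range in each panel) of the 10 genes in each of the 12 arrays, by group, with the mean and SD of 3 arrays as bars. Angptl4 runs from YR (10.98 to 11.30) to OSR (12.27 to 12.40), Plin1 and Cidec have their highest means in OR, and the 6 rigid arrays of G0s2 lie above the 6 semi-rigid ones.

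Plin1 and Cidec, the coat and fusion proteins of fat-cell droplets, had the widest span of the set and higher means in old than in young rats. Plin1 was at 5.74, 6.38 and 7.09 in YSR, 4.74, 6.92 and 4.79 in YR, 8.71, 7.90 and 6.90 in OSR, and 8.42, 8.74 and 9.19 in OR. All 3 OR arrays were above all 6 young arrays, whereas OSR array 3 lay within the young range. Means with SD over 3 arrays were 5.48 ± 1.25 (YR), 6.40 ± 0.68 (YSR), 7.83 ± 0.91 (OSR) and 8.78 ± 0.38 (OR). Old minus young was 2.36 (95% interval 1.43 to 3.30, 5.15-fold, adjusted p = 0.129 in limma). Over 19 alternatives the adjusted p lay between 0.0482 and 0.979. Only 1 of them, without OSR array 3 (2.60, adjusted p = 0.0482), was under 0.05. The YR minus OR difference, which drew Plin1 into the set, was -3.30 (-4.62 to -1.97). It makes up the rigid arm of the age difference, which is therefore not independent of the choice of Plin1, and nothing is read from its p-values.

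Cidec showed the same order of groups. It was at 2.54, 3.19 and 4.39 in YSR, 2.68, 3.57 and 1.43 in YR, 6.65, 3.43 and 5.92 in OSR, and 5.39, 7.01 and 7.87 in OR. As for Plin1, every OR array was above every young array and the OSR arrays were spread, with array 2 among the young values. Old minus young was 3.08 (1.58 to 4.58, 8.46-fold, adjusted p = 0.207) and YR minus OR was -4.20 (-6.32 to -2.08, adjusted p = 0.237). These are faint signals, from 2.7 to 21.0 on the linear scale in the young arrays, and with 16 added to every signal in place of the floor of 1 the difference between old and young was 1.84.

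Over both ages, rigid minus semi-rigid was 0.01 (-0.92 to 0.95) for Plin1 and 0.31 (-1.19 to 1.81) for Cidec. Within old rats OR was above OSR on average, by 0.95 for Plin1 and 1.43 for Cidec, and within young rats YR was below YSR, by 0.92 and 0.81. The interaction was 1.87 (-0.01 to 3.75) for Plin1 and 2.24 (-0.76 to 5.23) for Cidec, with an adjusted p of 0.99 for each. A dimmer probe set of Plin1 did not share this pattern, as its old minus young difference was -0.08 (-1.39 to 1.23).

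Plin2, the perilipin of most cell types, spanned a narrow range. Its 12 values lay between 13.10 and 13.80, the 4 groups overlapped, and old minus young was 0.03 (-0.20 to 0.25, adjusted p = 0.962). Rigid minus semi-rigid was 0.20 (-0.03 to 0.43, adjusted p = 0.845). Its second probe set gave -0.41 for old minus young (-0.73 to -0.10, adjusted p = 0.429), the opposite sign. Plin4, which coats small new droplets in fat cells and is also made in muscle, varied within groups as much as between them. It ranged from 6.73 to 8.12 in YR and from 7.21 to 8.63 in OSR, and old minus young was 0.62 (-0.07 to 1.31, adjusted p = 0.623).

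G0s2, the inhibitor of the lipase of Pnpla2, was divided by fixator. Its levels were 10.25, 10.50 and 10.14 in YR, 10.50, 10.91 and 10.14 in OR, 9.79, 9.80 and 9.22 in YSR, and 8.62, 9.54 and 9.41 in OSR. The lowest rigid array (10.14) was above the highest semi-rigid array (9.80), a separation seen in 0.151% of all probe sets, and this contrast drew G0s2 into the set, so it is a description. The log2 difference of rigid minus semi-rigid was 1.01 (2.01-fold) over both ages, and OR exceeded OSR by 1.33 and YR exceeded YSR by 0.69. Old minus young was -0.10 (-0.49 to 0.30, adjusted p = 0.909), and the interaction was 0.63 (-0.16 to 1.43, adjusted p = 0.99). Semi-rigid arrays were thus low in G0s2 and high in Angptl4 within each age.

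The lipase genes had small differences between groups at their brightest probe sets. Pnpla2, whose product is the lipase that G0S2 blocks, lay between 9.19 and 10.02 in all arrays, with a mean rigid minus semi-rigid difference of -0.01 (-0.30 to 0.28) and an old minus young difference of 0.22 (-0.07 to 0.52, adjusted p = 0.668). Its 3 OSR arrays (9.85 to 10.02) were above its 3 YSR arrays (9.55 to 9.80), as were those of Angptl4 and of 4.08% of all probe sets. Mgll, for the lipase of the last step, had its highest mean in OR (9.13 ± 0.49) against 8.57 ± 0.22 in YSR, 8.57 ± 0.84 in YR and 8.59 ± 0.34 in OSR. Old minus young was 0.29 (-0.28 to 0.85, adjusted p = 0.791) for Mgll, and its 3 dimmer probe sets gave 0.61, 0.64 and 0.79.

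Lipe, for hormone-sensitive lipase, depended on the probe set. The brighter one lay between 8.15 and 9.06 and gave an old minus young difference of -0.16 (-0.59 to 0.28, adjusted p = 0.852). The dimmer one was at 6.50, 6.23 and 6.75 in YSR, 7.19, 3.72 and 6.43 in YR, 8.54, 7.38 and 7.99 in OSR, and 6.88, 8.79 and 8.28 in OR. Only OR array 1 of the old arrays fell within the young range there, and old minus young was 1.84 (0.69 to 2.99, adjusted p = 0.315). Which of the probe sets follows the Lipe transcript better cannot be told from these values.

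**Figure D2:**
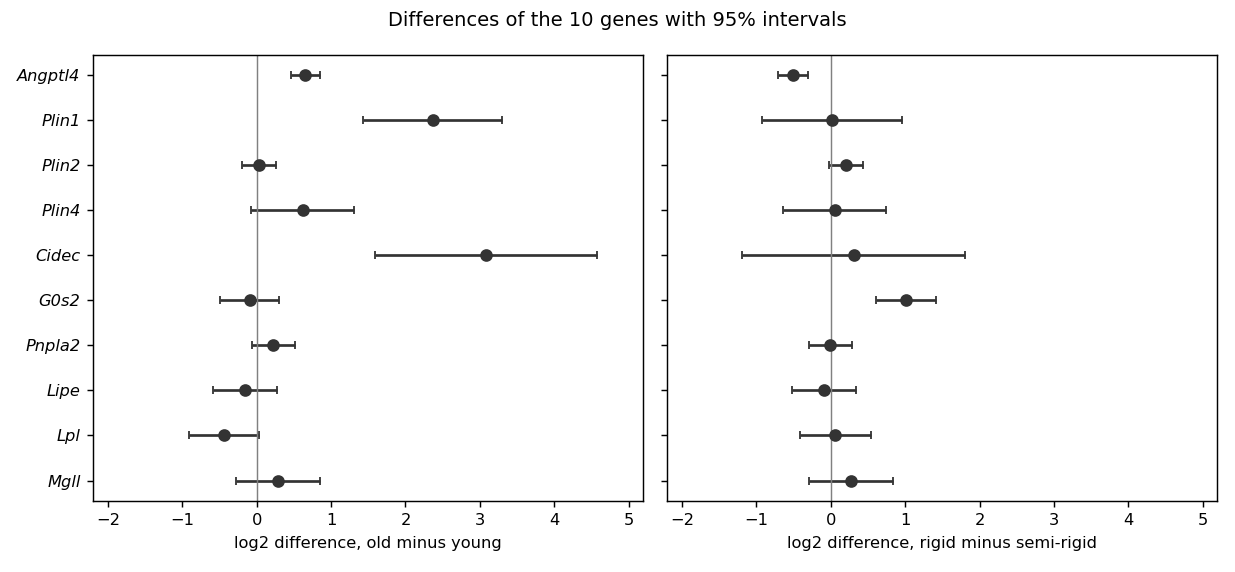
Log2 differences (points, horizontal axis) of the 10 genes with 95% intervals from limma, for old minus young (left) and rigid minus semi-rigid (right). Cidec (3.08), Plin1 (2.36) and Angptl4 (0.65) lie to the right of 0 for age, G0s2 (1.01) lies to the right and Angptl4 (-0.51) to the left for fixation, and the G0s2 fixation difference is one that drew it into the set.

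Over the 10 genes, no call was made at an adjusted p under 0.05 in limma except that of Angptl4 in OSR minus YR. For age 0 of 10 were called against 0.00644% of all probe sets, and for fixation and the interaction 0 of 10 against 0.0%. Unadjusted p-values under 0.05 were found for age in 3 of 10 genes, all higher in old rats (Angptl4, Plin1 and Cidec), against 4.7% of all probe sets in that direction and 3.89% in the other. For fixation 1 gene was higher (G0s2, by the contrast that drew it into the set, against 2.53%) and 1 lower (Angptl4, against 3.2%) with rigid fixation, and for the interaction 0 of 10 passed, against 3.8%. No gene had every old array above every young array, which 0.229% of all probe sets had. Between OR and YR, 3 genes did not overlap (Angptl4, Plin1 and Cidec, all higher in OR, against 7.75%), and between OR and YSR 3 did not (Plin1, Cidec and G0s2, against 7.29%). Plin1 was drawn into the set by YR against OR, Angptl4 by a difference in which YR was low and G0s2 by fixation. Nothing is therefore read from these counts or from those for age and fixation. The median difference of the 10 genes was 0.26 for age and 0.06 for fixation, beside 0.02 and 0.00 for all probe sets, and 3 of these genes had been chosen with such differences known.

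Angptl4 was next set against the fat-cell genes array by array. Over 12 arrays Angptl4 and Plin1 had a Pearson r of 0.68 and a Spearman rho of 0.601. Both genes were chosen by differences in which YR was low, which favours a positive r between groups, so it is given as a description with no p. Without YR arrays 1 and 3, the farthest from the median of Plin1, r was 0.374, so that the relation rested on those arrays. Angptl4 and Cidec had an r of 0.57 and a rho of 0.552, and r was 0.622 without OR arrays 2 and 3. Cidec also had its lowest mean in YR, so its relation with Angptl4 is likewise a description with no p. Both relations lay mostly between groups, as the deviations from the group means had an r of 0.199 with Plin1 and -0.134 with Cidec. With Plin1, r was -0.481 among the 6 old, 0.49 among the 6 young, 0.909 among the 6 rigid and 0.696 among the 6 semi-rigid arrays. With Cidec it was -0.477, 0.304, 0.885 and 0.501 in the same order. In old rats the OSR mean was above OR for Angptl4 and below it for Plin1. In young rats the YSR mean was above YR for both genes.

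Adjusted permutation p-values given here and below cover 17 pairs of genes. Over all 12 arrays, G0s2 had correlations near 0 with the fat-cell genes. Its r over 12 arrays was -0.051 with Plin1 (permutation p = 0.875, 0.935 adjusted; rho 0.07, p = 0.835, 0.939 adjusted) and -0.047 with Cidec (permutation p = 0.885, 0.935 adjusted; rho 0.042, p = 0.904, 0.939 adjusted). Without the farthest arrays r was 0.157 with Plin1 and -0.533 with Cidec. For the deviations from the group means it was -0.311 with Plin1 and -0.476 with Cidec. Among the 6 old arrays r was 0.312 and 0.197, and among the 6 young arrays -0.391 and -0.46, in the same order. The signs differed between fixators, since among the 6 semi-rigid arrays r was -0.839 with Plin1 and -0.861 with Cidec and among the 6 rigid arrays 0.467 and 0.395, a difference seen after the fact and not tested. The lowest G0s2 value of all, 8.62 in OSR array 1, stood in the semi-rigid array with the highest Plin1 and Cidec.

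Plin1 and Cidec themselves had an r of 0.879 and a rho of 0.888, with an r of 0.816 without OR arrays 2 and 3 and 0.55 for the deviations from group means. Plin1 was drawn into the set by YR against OR, where Cidec differed the same way, so this relation is a description with no p. Of the other genes, Pnpla2 came closest to them, with an r of 0.691 with Cidec (permutation p = 0.00847, 0.072 adjusted; rho 0.706, permutation p = 0.0135, 0.115 adjusted) and 0.646 without the same arrays. That relation held within groups, where the deviations gave 0.698. Leaving out the pairs given with no p, the remaining adjusted p-values for r lay between 0.151 and 0.935, and the lowest of them belonged to Pnpla2 with Plin1 (r = 0.594).

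**Figure D3:**
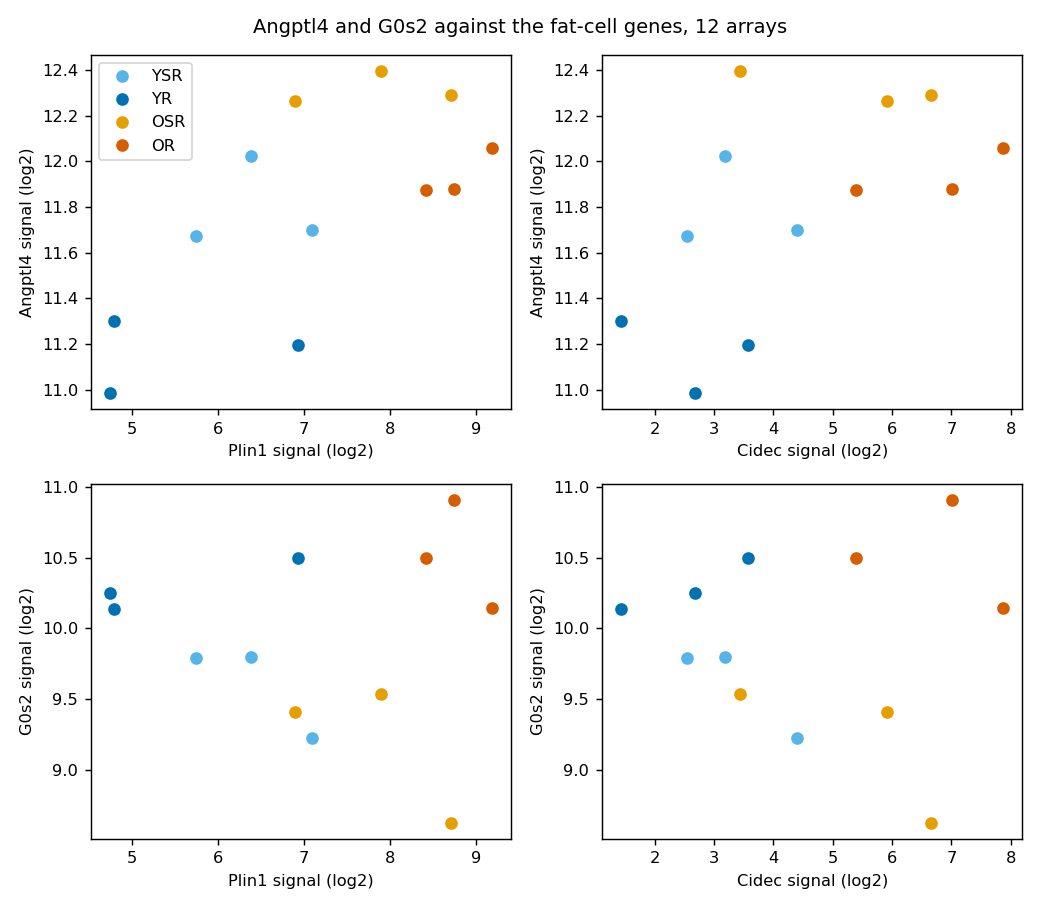
Angptl4 (top) and G0s2 (bottom) against Plin1 (left) and Cidec (right), signal in log2 on both axes, 1 point per array and 1 colour per group. Angptl4 is low at low Plin1 in YR and highest in OSR (r = 0.68 with Plin1), and the rigid and semi-rigid arrays of G0s2 form an upper and a lower band over the whole range of Plin1 and Cidec (r = -0.051 and -0.047).

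Genes most like Angptl4, G0s2 and Plin1 were taken by Pearson r over the 12 arrays among 9554 other genes no dimmer than the median probe set, as a description. Nearest to G0s2 was Hilpda (r = 0.929), a droplet protein made under low oxygen that also inhibits the lipase of Pnpla2, followed by Vdac2 (0.903), Ddit3 (0.881), Rack1 (0.88) and Fbxw11 (0.868). Hilpda was at 11.02, 10.85 and 10.71 in YSR, 10.60, 10.78 and 10.53 in OSR, 11.05, 11.41 and 11.06 in YR, and 11.27, 11.51 and 11.10 in OR. As for G0s2, every rigid array of Hilpda was above every semi-rigid array (0.151% of all probe sets), by a mean of 0.48 (adjusted p = 0.654). The nearest arrays were at 11.05 and 11.02. Hilpda was picked here by its r with G0s2, which fixation drew into the set, so nothing is read from this shared split. Its deviations from the group means had an r of 0.706 with those of G0s2. Ddit3, a transcription factor of the stress response of the endoplasmic reticulum, had a rigid minus semi-rigid difference of 0.47 (adjusted p = 0.781).

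The genes nearest to Plin1 were Thrsp (r = 0.956), a nuclear protein of fat synthesis and itself one of the fat-cell markers, Dnase1l3 (0.945), the matrix protease gene Mmp9 (0.94), Timp3 (0.914), an inhibitor of such proteases, and Spns2 (0.912). Their mean level was highest in OR and their deviations from the group means had an r of 0.835 to 0.884 with those of Plin1. Likeness to Plin1 over these arrays was therefore not limited to genes of fat cells. Angptl4 had weaker neighbours, of which Camkk2 (0.857), Zfp870 (0.84) and Nynrin (0.834) came first and Flna and Parp10 (0.816 each) next. Within groups their r with Angptl4 was 0.139 to 0.536, lower than over all arrays.

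**Figure D4:**
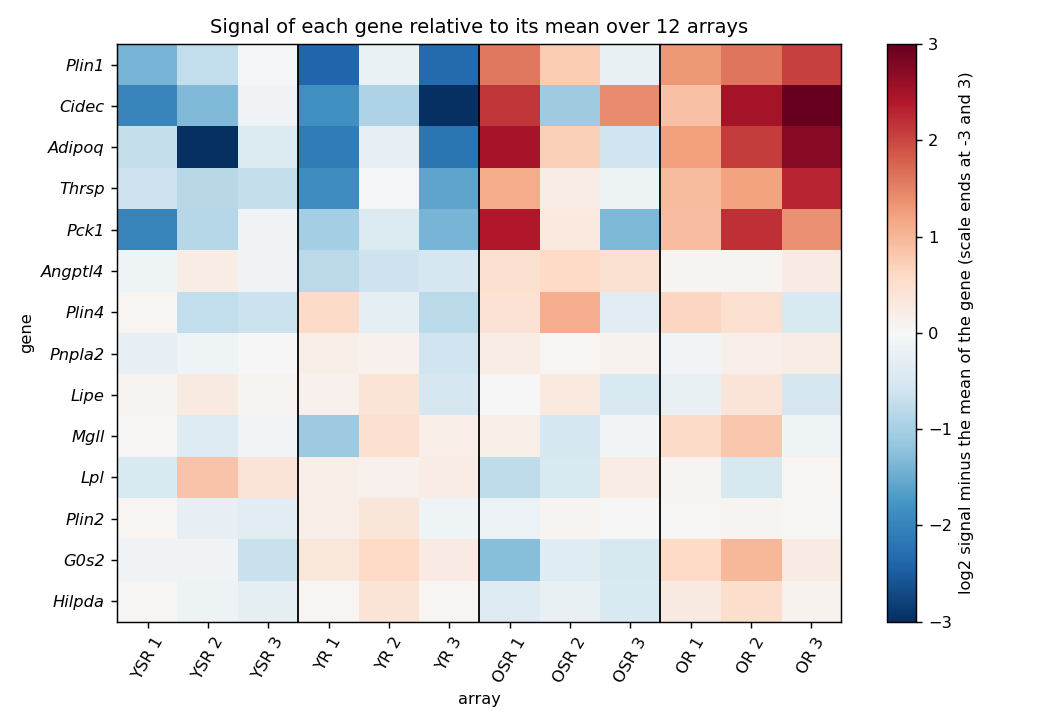
Signal of each gene minus its own mean over the 12 arrays (log2, colour scale ending at -3 and 3), for the 10 genes, 3 fat-cell markers (Adipoq, Thrsp and Pck1) and Hilpda, with black lines between groups. The 3 markers were among the 14 of 17 with a positive age difference. Those with a negative one, Fabp4 among them, are not shown. The upper 5 rows are red in most old arrays, with OSR arrays 2 and 3 mixed, Angptl4 is blue in YR and red in OSR, and G0s2 and Hilpda are red in the rigid groups and blue in the semi-rigid ones.

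The wider pathway was examined in lists of genes beside these 10, none of which held an adjusted call in limma in any of the 9 comparisons. The counts of genes that passed at an unadjusted p under 0.05 in these lists and in the cell markers stand against 4.7% higher and 3.89% lower for age and 2.53% higher and 3.2% lower for fixation over all probe sets. Of 15 other droplet coat and growth genes, 1 had an unadjusted p under 0.05 for age, the droplet enzyme gene Hsd17b11 (-0.28, adjusted p = 0.468), and 1 for fixation, Hilpda. Plin3, another widely made perilipin, had a rigid minus semi-rigid difference of -0.13 (adjusted p = 0.872). The median of the list was -0.10 for age and -0.13 for fixation.

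Among 13 other genes of lipolysis control and fatty acid release, 4 were higher and 1 lower in old rats at an unadjusted p under 0.05. Prkar2b, a regulatory subunit of the kinase that switches on lipolysis, differed by 0.83 (adjusted p = 0.219), the carboxylesterase gene Ces1d by 1.97 (adjusted p = 0.398) and Acsl1, which activates fatty acids, by 0.54 (adjusted p = 0.4). The lower one was Prkaca, the catalytic subunit of the same kinase, at -0.52 (adjusted p = 0.242). For fixation 0 of 13 passed.

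Lipase regulation and lipid uptake, with 15 other genes, had 12 negative differences for fixation, and 3 of these passed at an unadjusted p under 0.05. They were the lipoprotein receptor gene Lrp1 (-0.55, adjusted p = 0.818), Slc27a1 for a fatty acid transporter (-0.34, adjusted p = 0.845) and Sel1l (-0.51, adjusted p = 0.845), which is needed for lipoprotein lipase to leave the endoplasmic reticulum. Of these genes 1 passed for age, Fabp5, a fatty acid carrier of macrophages and other cells (-0.28, adjusted p = 0.504). Of 21 genes of fat synthesis, 11 had a positive and 10 a negative difference for age, and 2 of the positive and 1 of the negative passed at an unadjusted p under 0.05, namely Pck1 (1.94, adjusted p = 0.307), which supplies glycerol for triglyceride in fat cells, Dgat1 (0.31, adjusted p = 0.435) and Scd2 (-0.53, adjusted p = 0.461).

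Angptl4 is a known target of PPAR receptors, and 20 other PPAR targets that serve fatty acid oxidation had a median of 0.14 for age and 0.00 for fixation. Only Pex11a, for a peroxisome membrane protein (0.97, adjusted p = 0.196), and the muscle fatty acid carrier gene Fabp3 (-0.68, adjusted p = 0.46) had an unadjusted p under 0.05 for age, and 0 of 20 did for fixation. Cpt1a, the gate of fatty acid entry into mitochondria, was at 0.22 (adjusted p = 0.597). Low oxygen is another known trigger of Angptl4, and also of Hilpda. Of 20 transcripts induced by low oxygen, Hilpda among them, 17 had a negative difference for age. Of these 8 passed at an unadjusted p under 0.05, the glucose transporter gene Slc2a1 among them (-0.57, adjusted p = 0.215). For fixation 16 of 20 were negative and 4 of these passed, and the 1 that passed in the other direction was Hilpda. The median of the list was -0.30 for age and -0.16 for fixation, beside 0.65 and -0.51 for Angptl4 and -0.05 and 0.48 for Hilpda. Whether PPAR receptors or low oxygen had a part in the levels of Angptl4, G0s2 or Hilpda was not tested.

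Most fat-cell markers had the same signs as Plin1 and Cidec. Of 17 measured fat-cell markers, 14 had a positive difference for age, 6 of them at an unadjusted p under 0.05, with a median of 0.55, and YR minus OR was negative for 16, 8 of them at an unadjusted p under 0.05 (background 4.8%), with a median of -1.0. Adipoq, the fat-cell hormone gene, was at 6.68, 4.4 and 6.98 in YSR, 5.30, 7.16 and 5.21 in YR, 9.87, 8.12 and 6.80 in OSR, and 8.64, 9.49 and 10.13 in OR. It was higher in old rats by 2.89 (adjusted p = 0.167), with OSR array 3 again in the young range. Fabp4, which macrophages also make, was not higher (-0.09, adjusted p = 0.876), and Lep was near the floor, between 0.77 and 4.26 in all arrays.

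The summed signal of the 17 markers lay between 16739.7 and 16873.8 in YSR, 14421.1 and 21992.8 in YR, 17312.5 and 23526.3 in OSR, then 20757.7 and 38926.9 in OR, 9 of them were no dimmer than the median probe set, and 0 had every old array above every young array. In pooled tissue RNA, more fat cells and more transcript per fat cell cannot be told apart, and the part of this list in the differences of Plin1, Cidec and Angptl4 was not tested. Within the old rats the fat-cell list and Angptl4 went opposite ways, with 14 of 17 markers lower in OSR than in OR (median -0.89) and every OSR array of Angptl4 above every OR array (5.04% of all probe sets). Within the young rats they went the same way. There 12 of 17 markers were higher in YSR than in YR (median 0.30), and every YSR array of Angptl4 was above every YR array (5.73% of all probe sets).

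Markers of other cells also had differences for age. Of 13 macrophage markers, 6 were lower in old rats at an unadjusted p under 0.05 (3.89% of all probe sets) and 0 higher (4.7%, median -0.36, Cd68 -0.36), while Cd163 had -0.60 without passing. The summed signal of the list was 113563.0 to 148580.3 in YSR, 120055.5 to 146675.3 in YR, 101052.4 to 133861.2 in OSR and 95391.5 to 142807.8 in OR. At the same threshold 4 of 6 neutrophil markers were higher in old rats (median 1.56) and 0 lower. Differences of red cell precursor markers were positive for 9 of 9, of which 3 passed (median 0.87), and those of fibroblast markers were positive for 7 of 10, of which 3 passed, and negative for 3, of which 1 passed (median 0.22). Of 15 skeletal muscle markers 14 had a negative difference for age and 0 passed, with a median of -1.36 and a summed signal that spread from 13335.4 to 146795.7 within OSR alone. The muscle actin gene Acta1 was at 9.23 in OSR array 1 and 9.06 in OR array 2, against 13.00 to 15.23 in the other arrays, and the muscle creatine kinase gene Ckm at 7.66 and 4.72. OSR array 1, OR array 2 and OR array 3 (Acta1 at 13.00, Ckm at 8.42) held the lowest levels of both muscle genes and the highest levels of Plin1 (8.71, 8.74 and 9.19), and the part of muscle RNA in the Plin1 and Cidec differences was not tested. For fixation, in which G0s2 was divided, 0 macrophage, 0 red cell precursor and 0 muscle markers passed, and 1 neutrophil and 1 fibroblast marker were higher with rigid fixation. Rigid minus semi-rigid was positive for 9 of 9 red cell precursor (median 0.81), 4 of 6 neutrophil (0.45) and 6 of 10 fibroblast markers (0.10). It was negative for 11 of 13 macrophage (median -0.28) and 13 of 15 muscle markers (-0.48). Whether these cell types had a part in the levels of Angptl4, G0s2 or Plin2 was not tested.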

How the data were processed

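RNA of 12 pools was hybridized to Affymetrix rat arrays with 1 colour. The values were linear signal intensities that the authors deposited for 31099 probe sets, scaled to 1 trimmed mean on every array (500.2 when the outer 0.02 of signals at either end was dropped). The submitters' processing notes name GCOS 1.2, whereas the methods describe PLIER summaries, which were not used here. A floor of 1 was set before log2. Without the 57 control probe sets, 31042 were tested in limma (version 3.58.1, lmFit, then eBayes with trend, in R 4.3.3 with data.table, version 1.17.8). A joint fit of the 4 groups left 8 residual degrees of freedom, and Benjamini-Hochberg adjustment covered all 31042, with a threshold of 0.05. The 9 comparisons were the 6 pairs, old minus young, rigid minus semi-rigid and the interaction (YSR minus YR, minus OSR minus OR). The number of arrays limits the precision.

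Symbols came from the platform annotation (20826 probe sets with 1 symbol, 436 with several, 9780 with none), of which 20758 were updated through a gene identifier. The members and gene lists were chosen with earlier results of these data known. Named were all 10 members, the 5 genes most like Angptl4, G0s2 and Plin1, up to 4 genes of each list by smallest unadjusted p in the comparison described, and Adipoq, Fabp4, Lep, Cd68, Cd163, Ckm and Acta1. Alas2 was added after its values were seen. Correlations used 100000 permutations (two-sided) in scipy 1.17.1, with Python 3.11.15, pandas 2.3.3, numpy 2.4.6 and matplotlib 3.10.9. Alternatives were quantile normalization, a pseudocount of 16, leaving out dim probe sets, no intensity trend, the pair's arrays alone, the methods' ANOVA, the replicate number as a block, dimmer probe sets, and leaving out single arrays or the pair of highest Gapdh ratio. The fit was tested on simulated data.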

Additional observations from a re-analysis of the deposited data

How the results depend on the processing

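Of 1050 alternative values for 54 log2 differences, 997 kept their sign and their side of the threshold, and so did 53 of 68 for 4 correlations and 174 of 186 counts of genes called. The replicate numbers are shared only as numbers, since same-numbered arrays deviated together no more than others (median r 0.019 over 18 pairs against 0.020 over 36). With a replicate block, Angptl4 in OSR minus YR had an adjusted p of 0.0476, the count there stayed 1 and no other call changed. That count was 0 without the intensity trend, with the pair's arrays alone and by the methods' ANOVA, and from 0 to 1 when single arrays were left out. The ANOVA was run here on the deposited signals, with adjustment over all probe sets. The paper's own rule was an unadjusted p under 0.05 with a fold change beyond 2, so the count of 0 is not a result of that rule. The count for age was from 0 to 2 when single arrays were left out, with 2 (Angptl4 and Plin1) without OSR array 3. Over all probe sets, calls for age were then 80 against 2 with all arrays. Without the 2 arrays of highest Gapdh ratio they were 32 against 1 in OSR minus YR, 27 against 0 in YSR minus YR and 3 against 0 for fixation, and with the pair's arrays alone 14 against 1 in YR minus OR. In YSR minus OR they were 13 without OSR array 3 and 8 without OSR array 1, against 0.

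Signs turned mainly where a difference was near 0. Leaving out single arrays gave, for age, -0.043 to 0.086 for Plin2 and -0.194 to 0.046 for G0s2. For fixation it gave -0.347 to 0.231 for Plin1, -0.138 to 0.225 for Plin4, -0.167 to 0.650 for Cidec, -0.074 to 0.118 for Pnpla2, -0.218 to 0.038 for Lipe and -0.119 to 0.212 for Lpl, and for the interaction -0.308 to 0.076 for Pnpla2 and -0.174 to 0.284 for Lipe. Without the 2 arrays of highest Gapdh ratio, fixation was -0.062 for Plin1, 0.010 for Pnpla2 and -0.166 for Lpl, and the interaction was 0.094 for Pnpla2.

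The second brightest probe set turned the sign for age in Plin1 (-0.083), Plin2 (-0.413) and Lipe (1.841). For Plin1 it also gave -0.348 in the interaction, -0.409 in YSR minus YR, 0.257 in YR minus OR and -0.318 in OSR minus YR. The cause was not tested.

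The correlation of Angptl4 with Plin1 was 0.558 to 0.735 and that with Cidec 0.490 to 0.711 when single arrays were left out, and 0.199 and -0.134 for deviations from the group means. The r of Angptl4 with Cidec was 0.622 without YSR array 2 and 0.711 without OSR array 2. For G0s2 the range was -0.266 to 0.214 with Plin1 and -0.300 to 0.224 with Cidec. The rank correlation of G0s2 was 0.070 with Plin1 and 0.042 with Cidec, and its r with Cidec was 0.002 with a pseudocount of 16.

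The precision is limited by 3 pools per group, and the dim signal of Cidec had an age difference of 3.08 with the floor and 1.843 with a pseudocount of 16.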
